A study of Mus musculus with 24 samples.

Results

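The genes described were 10 that handle heme and iron, of the 15160 genes listed in the count table, and they were picked by symbol: the heme-degrading enzymes Hmox1, Blvra and Blvrb, the ferritin chains Fth1 and Ftl1, the iron exporter Slc40a1, the hormone gene Hamp, the transferrin receptor Tfrc and the heme-synthesis enzymes Alas1 and Fech. RNA from the livers of male mice was counted by 3′ mRNA sequencing in a design that crossed hepatic loss of the transcription factor NRF2 (gene Nfe2l2) with dietary methionine restriction. The study asked whether the liver's response to methionine restriction needs hepatic NRF2. Wild-type (WT) mice were labelled NRF2fl/fl and knockout (NRF2 KO) mice NRF2fl/(alb), so the floxed Nfe2l2 allele was shared by every group and the controls were floxed animals without the Cre transgene. Cre came from the albumin promoter, which is active in hepatocytes, and removes exon 5 of Nfe2l2, so other liver cells keep the gene. The floxed line was on C57BL/6. From 8 weeks of age the mice were fed an amino acid diet without cysteine for 8 weeks. Methionine made up 0.86% of it (Con) or was restricted to 0.17% (MR). The study's methods place calorimetry and a re-equilibration period after those 8 weeks and before tissue harvest. The labelled age of the mice was 5 months, and liver was taken after a 4 h fast. The comparisons used 10 WT mice, 5 on each diet, and 12 NRF2 KO mice, 6 on each diet, with 1 library per mouse. Mouse WT_CON_7604 of the WT Con group and mouse WT_MR_7612 of the WT MR group were left out, and their values are given separately. The study likewise removed a pair of outliers, which its text does not name.

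Depth ran from 6197291 to 22068338 counts per mouse, and 13336 genes passed the filter on low counts, all 10 members among them. The summed level of 10 hepatocyte markers, Alb among them, was 85736 to 113682 CPM (read counts scaled to a common library size) in WT Con, 76031 to 91166 in WT MR, 109559 to 127906 in NRF2 KO Con and 94765 to 115736 in NRF2 KO MR mice. WT MR thus lay below both knockout groups, and the part of this in the member values was not tested. Exon 5 is the last exon of Nfe2l2 in GENCODE M21 and reaches its 3′ end, and how much of it is removed is not given in the sources used here, so a 3′ count per gene is no test of the deletion. The study's own quantitative PCR, with primers that detect the excised part of exon 5, found less Nfe2l2 mRNA in knockout livers. In the 3′ counts Nfe2l2 was higher, not lower, in the knockouts. It stood at 228 to 339 CPM in NRF2 KO Con mice, at 202 to 249 CPM in NRF2 KO MR mice and at 94.0 to 107 CPM in WT MR mice. In WT Con mice it was 106 to 125 CPM in 4 animals and 324 CPM in the library labelled WT_CON_7607, which lay inside the knockout range. In that library 17 of 23 NRF2 target enzymes outside heme and iron metabolism were lower than in each of the other 4 WT Con mice, and 16 were at or below the highest NRF2 KO Con mouse. For another mouse the most such genes at the lowest level of its own group was 12. The member results for MR in WT and for the knockout on Con are therefore plotted with and without that library.

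Heme oxygenase opens the heme ring into biliverdin, carbon monoxide and iron, and biliverdin reductases turn biliverdin into bilirubin. The freed iron is stored in ferritin or leaves the cell through ferroportin, and hepcidin, secreted by hepatocytes, makes cells take ferroportin off their surface. When iron is scarce, iron regulatory proteins bind a hairpin called the iron-responsive element (IRE): bound in the 5′ UTR it blocks translation of ferritin and ferroportin mRNA, and bound in the 3′ UTR it protects transferrin receptor mRNA from decay. NRF2 is known as an activator of heme-degradation and ferritin genes, and the liver stores much of the body's iron while also making heme for cytochromes P450.

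Of the 10 members, 4 hold a match to such an element in the GENCODE M21 annotation of GRCm38. Their sequences are shown because they separate the mRNAs whose translation iron controls from the mRNA whose level iron controls. Each line gives 29 bases of the sense strand, 5′ to 3′, written as DNA, and the capitals mark the bulged C and the 6-base loop.
Fth1 5′ UTR, chr19:9982732-9982760 plus strand: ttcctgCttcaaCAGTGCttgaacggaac
Ftl1 5′ UTR, chr7:45459779-45459807 minus strand: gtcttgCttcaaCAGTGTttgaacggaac
Slc40a1 5′ UTR, chr1:45925465-45925493 minus strand: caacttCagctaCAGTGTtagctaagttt
Tfrc 3′ UTR, chr16:32631219-32631247 plus strand: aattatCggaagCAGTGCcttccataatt
Tfrc 3′ UTR, chr16:32631598-32631626 plus strand: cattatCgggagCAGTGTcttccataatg
Tfrc 3′ UTR, chr16:32631663-32631691 plus strand: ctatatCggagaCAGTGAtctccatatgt
Tfrc 3′ UTR, chr16:32631710-32631738 plus strand: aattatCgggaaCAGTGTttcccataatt
The search required the bulged C, 5 bases, a CAGTGN loop whose last base is not G, and 5 bases pairing with the first 5, with G-T pairs allowed. It found a match in the 5′ UTR of 23 of 21901 protein-coding genes (0.105%) and in the 3′ UTR of 100 (0.457%). The stems of Fth1 and Ftl1 next to the loop are spelled the same, whereas the 4 Tfrc matches differ in the stem. All matches share the CAGTG loop because the search required it. A match is a description of the letters and not a measured binding site, and elements that depart from this pattern would be missed.

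MR in WT liver was accompanied by higher mRNA for the biliverdin reductase Blvrb, both ferritin chains, ferroportin and the transferrin receptor, and by slightly lower Blvra. That was 6 of the 10 members (5 higher, 1 lower) at an adjusted p under 0.05, against 13.8% of all genes tested called and 6.91% called higher. In NRF2 KO liver MR changed 2 members, Blvrb upward and Blvra downward, where 12.6% of all genes were called and 6.23% were called higher. Between genotypes on the Con diet none of the 10 was called in edgeR's quasi-likelihood test, with 2.07% of all genes called. At an unadjusted p under 0.05 there were 5 of the 10, and both DESeq2 and limma called 0. The share of all genes at an unadjusted p under 0.05 was computed only for the difference between the effects of MR in the 2 genotypes. Other counts at an unadjusted p therefore have no background. On the MR diet 4 members were lower in NRF2 KO than in WT liver (Blvrb, Fth1, Ftl1 and Slc40a1), against 1.93% of all genes called and 1.38% called lower. The median log2 fold change over the 10 members was 0.67 for MR in WT, 0.12 for the diet in NRF2 KO, -0.03 for the knockout on Con and -0.28 for the knockout on MR, where the medians over all genes tested lay between -0.00619 and 0.00474. The comparisons share mice: both WT groups and both NRF2 KO groups enter 2 of these 4 comparisons each. Throughout, log2 fold changes and p-values come from the quasi-likelihood test of edgeR, adjusted by Benjamini-Hochberg over all 13336 genes, levels are CPM scaled by TMM library sizes, and a signed value given for a gene beside an adjusted p is a log2 fold change.

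**Figure D1:**
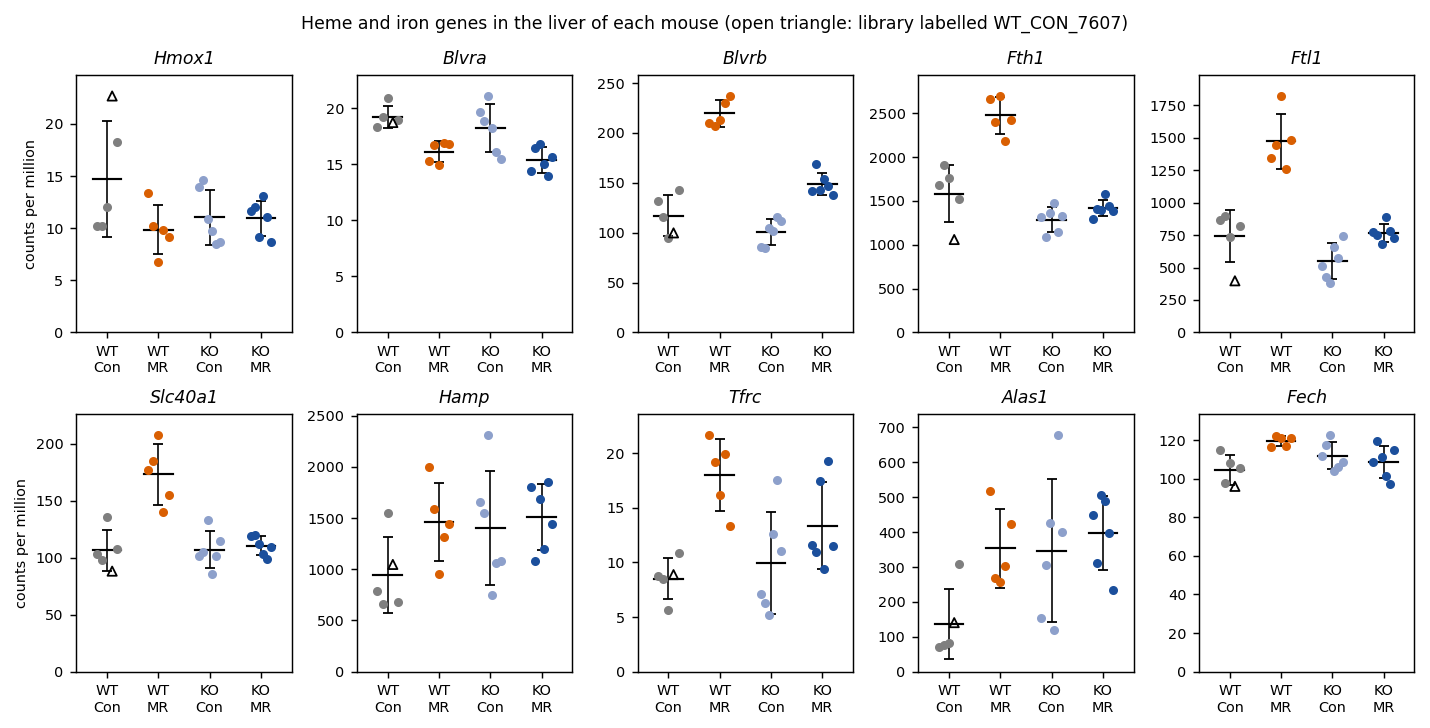
Level of each of the 10 heme and iron genes in CPM (y axis, starting at 0) in every mouse of the 4 groups (x axis), with bars at the mean ± SD, and the open triangle is the library labelled WT_CON_7607. For Blvrb, Fth1, Ftl1, Slc40a1 and Tfrc all 5 WT MR mice sat above all 5 WT Con mice, as in Blvrb with 207 to 237 against 95.1 to 143 CPM.

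WT values are listed in the order of mouse numbers, WT_CON_7602, WT_CON_7603, WT_CON_7605, WT_CON_7607 and WT_CON_7608 for WT Con and WT_MR_7609, WT_MR_7611, WT_MR_7613, WT_MR_7615 and WT_MR_7616 for WT MR. Groups whose mice do not overlap made up 9.32% of all genes for MR in WT, 5.45% for the diet in NRF2 KO, 1.83% for the knockout on Con and 4.6% for the knockout on MR. Among the members the counts were 7, 1, 0 and 4 of 10.

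Hmox1 (ENSMUSG00000005413, chr8:75093621-75100589, plus strand), the inducible heme oxygenase, stood at 10.2, 10.2, 12.1, 22.7 and 18.3 CPM in WT Con mice and at 13.3, 10.2, 6.74, 9.79 and 9.15 CPM in WT MR mice. NRF2 KO Con mice had a lowest value of 8.45 CPM, a median of 10.3 and a highest value of 14.6, and NRF2 KO MR mice a lowest value of 8.68 CPM, a median of 11.3 and a highest value of 13.1. All 4 groups overlapped, and the 2 highest values were those of WT Con mice WT_CON_7607 and WT_CON_7608. The log2 fold change for MR in WT was -0.57 ± 0.22 (SE, adjusted p = 0.083), below 0 and not called, and for MR in NRF2 KO it was -0.02 ± 0.20 (SE, adjusted p = 0.96). Without the library labelled WT_CON_7607 the WT value was -0.37 ± 0.21 (SE, adjusted p = 0.26), and without WT Con mouse WT_CON_7602 it was -0.68 (adjusted p = 0.044). Between genotypes Hmox1 differed by -0.41 (adjusted p = 0.37) on Con, or by -0.20 (adjusted p = 0.7) without the library labelled WT_CON_7607, and by 0.14 (adjusted p = 0.84) on MR. Its constitutive counterpart Hmox2 rose with MR in both genotypes, with a log2 fold change of 0.28 (adjusted p = 0.0044) in WT and 0.27 (adjusted p = 0.0026) in NRF2 KO.

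Blvra (ENSMUSG00000001999, chr2:127070665-127097084, plus strand), the biliverdin reductase of adult bilirubin formation, stood at 18.3, 19.2, 20.9, 18.7 and 18.9 CPM in WT Con mice and at 15.3, 16.7, 14.96, 16.9 and 16.8 CPM in WT MR mice, so that the 2 groups did not overlap. In NRF2 KO livers, Con mice had a lowest value of 15.4 CPM, a median of 18.5 and a highest value of 21.1, and NRF2 KO MR mice a lowest value of 13.9 CPM, a median of 15.3 and a highest value of 16.8, with overlap. Blvra fell in both genotypes, with a log2 fold change of -0.25 ± 0.086 (SE, adjusted p = 0.049) in WT and -0.25 ± 0.077 (SE, adjusted p = 0.033) in NRF2 KO, with a difference between the 2 effects of 0.00 ± 0.12 (SE, adjusted p = 1). Both calls lay close to the threshold. The WT call was lost without the library labelled WT_CON_7607 (-0.26 ± 0.093, SE, adjusted p = 0.07) and was kept in 6 of 22 fits that left out 1 mouse and in 2 of 10 other settings. The NRF2 KO call was kept in 15 of those 22 fits and without the library labelled WT_CON_7607 (-0.25 ± 0.080, SE, adjusted p = 0.038).

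Blvrb (ENSMUSG00000040466, chr7:27447978-27466144, plus strand), a further biliverdin reductase that is also a flavin reductase, stood at 131, 115, 95.1, 99.8 and 143 CPM in WT Con mice and at 210.3, 207, 213, 230.1 and 237 CPM in WT MR mice. The knockouts on Con had a lowest value of 84.5 CPM, a median of 103 and a highest value of 116, and NRF2 KO MR mice a lowest value of 138 CPM, a median of 145 and a highest value of 169. MR and Con did not overlap in either genotype, and all NRF2 KO MR mice lay below all WT MR mice. Blvrb rose 1.88-fold with MR in WT, a log2 fold change of 0.91 ± 0.11 (SE, adjusted p = 8e-06), and 1.48-fold in NRF2 KO, 0.56 ± 0.10 (SE, adjusted p = 0.00051). It was the only member called higher with MR in both genotypes under edgeR's quasi-likelihood test with all 22 mice. On the MR diet it was lower in NRF2 KO than in WT liver, -0.56 ± 0.10 (SE, adjusted p = 0.0016), and on Con the difference was -0.22 ± 0.10 (SE, adjusted p = 0.32), or -0.27 (adjusted p = 0.19) without the library labelled WT_CON_7607. The effects of MR in the 2 genotypes differed by -0.34 ± 0.14 (SE, adjusted p = 0.56), which was not called. Leaving out any 1 mouse kept both rises, at 0.84 to 0.99 in WT and 0.52 to 0.61 in the knockouts.

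In the list of 11 genes for heme breakdown and heme clearance from plasma, 3 were higher and 2 lower with MR in WT. With MR in NRF2 KO 2 were higher and 2 lower. Between genotypes 0 were called on Con in edgeR (3 at an unadjusted p under 0.05), and Blvrb was lower on MR. Over all genes 13.8% were called with MR in WT, 12.6% with MR in NRF2 KO, 2.07% between genotypes on Con and 1.93% on MR. The same shares are the background for each further list of genes and markers. The plasma hemoglobin scavenger Hp, also an acute phase protein, fell with MR in both genotypes, -0.56 (adjusted p = 0.02) in WT and -0.88 (adjusted p = 4e-04) in NRF2 KO. Of 18 acute phase proteins, Hp among them, 8 fell and 1 rose with MR in each genotype.

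**Figure D2:**
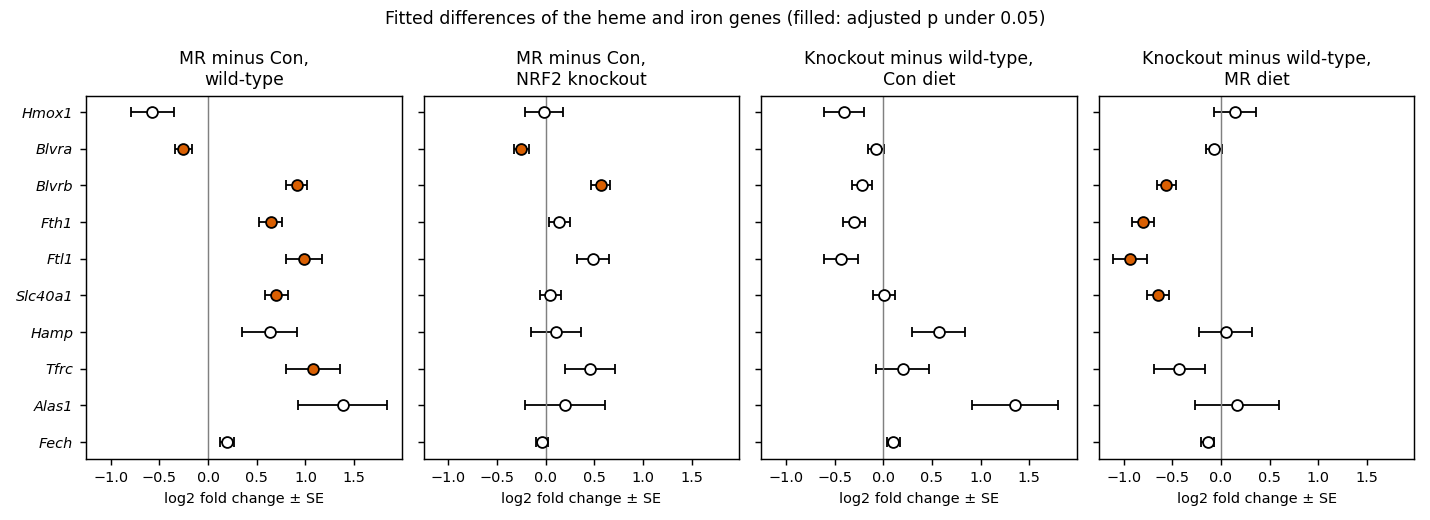
Fitted log2 fold change (x axis) with its standard error for the 10 members (y axis) in 4 comparisons, where filled points have an adjusted p under 0.05. The filled points are 6 for MR in wild-type mice, 2 for MR in knockouts, 0 between genotypes on Con and 4, all below 0, on MR.

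Fth1 (ENSMUSG00000024661, chr19:9980598-9985098, plus strand), the ferritin heavy chain that oxidizes iron for storage, stood at 1679, 1905, 1756, 1059 and 1521 CPM in WT Con mice and at 2666, 2403, 2696, 2184 and 2420.3 CPM in WT MR mice. NRF2 KO Con mice had a lowest value of 1085 CPM, a median of 1324 and a highest value of 1473, and NRF2 KO MR mice a lowest value of 1293 CPM, a median of 1403 and a highest value of 1579.5. WT MR mice lay above every other mouse, the NRF2 KO groups overlapped each other, and the lowest WT Con value, 1059 CPM, was that of the library labelled WT_CON_7607. Fth1 rose 1.56-fold with MR in WT, a log2 fold change of 0.64 ± 0.12 (SE, adjusted p = 0.00087), and its value in NRF2 KO was 0.14 ± 0.11 (SE, adjusted p = 0.44). On the MR diet it was lower in NRF2 KO than in WT liver, with a log2 fold change of -0.80 ± 0.11 (SE, adjusted p = 8.2e-05), and all NRF2 KO MR mice lay below all WT MR mice. The difference between the effects of MR in the 2 genotypes was -0.50 ± 0.16 (SE, adjusted p = 0.41), not called after adjustment. On Con the genotype difference was -0.30 ± 0.11 (SE, adjusted p = 0.2) with all 5 WT Con mice and -0.41 ± 0.093 (SE, adjusted p = 0.014) without the library labelled WT_CON_7607, which then passed the test. The rise with MR in WT without that library was 0.53 ± 0.10 (SE, adjusted p = 0.0012).

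Ftl1 (ENSMUSG00000050708, chr7:45457944-45459884, minus strand), the ferritin light chain, stood at 867, 893, 732, 398 and 820.4 CPM in WT Con mice and at 1347, 1444, 1820.1, 1258 and 1483 CPM in WT MR mice. In NRF2 KO livers, Con mice had a lowest value of 381 CPM, a median of 545 and a highest value of 741, and NRF2 KO MR mice a lowest value of 684 CPM, a median of 764 and a highest value of 888. As for Fth1, WT MR mice lay above all others, while the value of 398 CPM in the library labelled WT_CON_7607 was below the other 4 WT Con mice and inside the NRF2 KO Con range. Ftl1 rose 1.98-fold with MR in WT, 0.99 ± 0.18 (SE, adjusted p = 0.001), and was lower in NRF2 KO than in WT liver on MR, -0.94 ± 0.17 (SE, adjusted p = 0.0028). That difference lost its call with a score over 18 clock genes as covariate (-0.71, adjusted p = 0.082). For MR in NRF2 KO the value was 0.48 ± 0.16 (SE, adjusted p = 0.056), just outside the threshold. It passed in 6 of 10 other settings, without the library labelled WT_CON_7607 (0.48 ± 0.13, SE, adjusted p = 0.013), without NRF2 KO Con mouse KO_CON_7621 (0.54, adjusted p = 0.048) and without mouse KO_CON_7623 (0.59, adjusted p = 0.02). The difference between the effects of MR in the 2 genotypes was -0.50 ± 0.24 (SE, adjusted p = 0.67). On Con the genotype difference was -0.43 ± 0.17 (SE, adjusted p = 0.23), and without the library labelled WT_CON_7607 it was -0.59 ± 0.14 (SE, adjusted p = 0.018) and was called. The rise with MR in WT without that library was 0.83 ± 0.15 (SE, adjusted p = 0.00081).

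Both ferritin genes have near copies in the genome. GENCODE M21 lists 11 further Fth1-like genes, none of them in the count table, and 3 further Ftl1-like genes, of which Ftl1-ps1 was counted at 0 to 7 reads per mouse. The annotated miRNA Gm22133 overlaps the 3′ end of Ftl1 on the same strand. How reads that match several copies were assigned is not given in the sources used here, so the ferritin counts are uncertain to that extent. Of the 5 iron storage and ferritin turnover genes tested, 3 were called higher with MR in WT: the 2 ferritin chains and Pcbp2, a chaperone that delivers iron to ferritin, at 0.33 (adjusted p = 0.0044). In NRF2 KO none was called with MR by edgeR's quasi-likelihood test, where the unadjusted p of Ftl1 was 0.0075. Of the 2 ferritin chains DESeq2 called Ftl1 there (0.49, adjusted p = 0.03), and it called 2018 of 15160 genes in all.

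Slc40a1 (ENSMUSG00000025993, chr1:45908068-45926523, minus strand) encodes ferroportin, the iron exporter of hepatocytes and macrophages. It stood at 103, 98.1, 136, 88.2 and 107 CPM in WT Con mice and at 177, 185, 207, 139.7 and 155 CPM in WT MR mice. The knockouts on Con had a lowest value of 85.6 CPM, a median of 103 and a highest value of 134, and NRF2 KO MR mice a lowest value of 98.5 CPM, a median of 111 and a highest value of 119.7. All 5 WT MR mice were above every mouse of the other 3 groups, which overlapped each other. Slc40a1 rose 1.62-fold with MR in WT, a log2 fold change of 0.70 ± 0.12 (SE, adjusted p = 0.00038), while the value in NRF2 KO was 0.04 ± 0.11 (SE, adjusted p = 0.84). On the MR diet it was lower in NRF2 KO than in WT liver, -0.65 ± 0.11 (SE, adjusted p = 0.0012), and on Con the difference was 0.01 ± 0.11 (SE, adjusted p = 0.99), or -0.055 (adjusted p = 0.89) without the library labelled WT_CON_7607. The difference between the 2 effects of MR, -0.65 ± 0.16 (SE, adjusted p = 0.21), had the lowest adjusted p of the 10 members and was not called. It passed without WT Con mouse WT_CON_7605 (-0.75, adjusted p = 0.044), and the range over all fits without 1 mouse was -0.75 to -0.58. Without the library labelled WT_CON_7607 the rise in WT was 0.64 ± 0.12 (SE, adjusted p = 0.0014).

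Ferroportin is also made by macrophages, and in these whole-liver libraries fewer cells of a type and less RNA per cell cannot be told apart. Of 14 macrophage and Kupffer cell markers, 9 were lower with MR in WT and 5 were lower with MR in NRF2 KO, and between genotypes edgeR called 0 on either diet (1 on Con and 0 on MR at an unadjusted p under 0.05). Their summed level was 603 to 821 CPM in WT Con, 478 to 546 in WT MR, 521 to 778 in NRF2 KO Con and 453 to 609 in NRF2 KO MR mice. In WT the marker sum was lower in all MR mice than in any Con mouse, while Slc40a1 was higher. Of 11 stellate cell markers 7 fell with MR in WT and 5 in NRF2 KO, and of 5 bile duct markers tested 4 and 1 fell. Of 10 sinusoidal endothelial markers edgeR called 0 with MR in WT, and 0 had an unadjusted p under 0.05. The part of these cells in the member values was not tested.

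Over all members the difference between the MR effects of the 2 genotypes was called for none by edgeR's quasi-likelihood test, against 0.045% of all genes, which is 6 genes. At an unadjusted p under 0.05 it was 4 of 10 (Slc40a1, Fth1, Fech and Blvrb), against 7.56% of all genes. DESeq2 called 1 member, Slc40a1 (-0.65, adjusted p = 0.049), and it called 33 of 15160 genes in all. For 8 of the 10 members the effect was lower in NRF2 KO than in WT, with a median difference of -0.50, against 0.00333 over all genes tested. The share of all genes with a lower effect in NRF2 KO was not computed, and the members were measured in the same mice. A call of the MR effect in WT beside no call in NRF2 KO is therefore not by itself a difference between genotypes for Fth1, Ftl1, Slc40a1 or Tfrc.

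**Figure D3:**
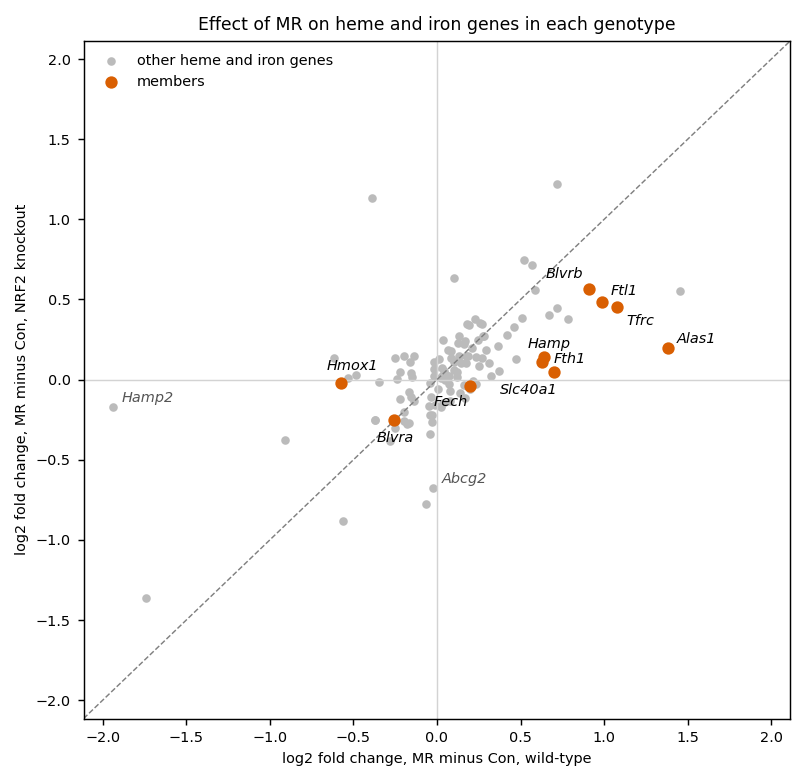
Log2 fold change for MR minus Con in wild-type mice (x axis) and in NRF2 knockouts (y axis) for 122 heme and iron genes, with the 10 members in orange and the dashed line marking equal effects. All 8 members with a value above 0 in wild-type mice sit below the line, as Slc40a1 at 0.70 and 0.04, while Blvra sits on it at -0.25 and -0.25. Other plotted genes above 0 in wild-type mice lie on both sides, as Slc48a1 at 0.78 and 0.38 below the line and Maff at 0.72 and 1.22 above. The share of all genes above 0 in wild-type mice that lie below the line was not computed, so the count of members has no background.

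Hamp (ENSMUSG00000050440, chr7:30942368-30944032, minus strand), which encodes hepcidin, stood at 784, 659, 1552, 1047 and 676 CPM in WT Con mice and at 1998, 1591, 958, 1318 and 1439.8 CPM in WT MR mice. NRF2 KO Con mice had a lowest value of 751 CPM, a median of 1314 and a highest value of 2309, and NRF2 KO MR mice a lowest value of 1077 CPM, a median of 1564 and a highest value of 1851. The groups overlapped in every comparison, with a wide spread inside each. No comparison was called: 0.63 ± 0.28 (SE, adjusted p = 0.15) for MR in WT, 0.11 ± 0.26 (SE, adjusted p = 0.83) for MR in NRF2 KO, 0.57 ± 0.27 (SE, adjusted p = 0.35) for the knockout on Con and 0.05 ± 0.27 (SE, adjusted p = 0.97) for the knockout on MR. MR in WT passed without WT Con mouse WT_CON_7605, the highest of its group (0.88, adjusted p = 0.041), and was 0.67 (adjusted p = 0.18) without the library labelled WT_CON_7607. The near copy Hamp2 (chr7:30922372-30924681, minus strand) moved the other way in WT, from 629 ± 349 CPM (SD, n = 5) on Con to 164 ± 83.3 CPM (SD, n = 5) on MR, a log2 fold change of -1.94 ± 0.50 (SE, adjusted p = 0.015). In NRF2 KO its value with MR was -0.17 (adjusted p = 0.85), and the difference between the 2 effects was 1.77 (adjusted p = 0.51). Reads shared by the 2 copies may have been split between them by the counting, which is not described for such reads.

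Of 24 tested genes for hepcidin and its BMP and SMAD control, 2 rose and 2 fell with MR in WT, where 13.8% of all genes were called. With MR in NRF2 KO 2 rose, where 12.6% of all genes were called. Between genotypes 1 was higher and 2 lower on Con and 1 was lower on MR, against 2.07% and 1.93% of all genes called. Hfe, the membrane protein that signals iron status to hepcidin, was lower in NRF2 KO liver on both diets: 19.6 to 22.5 CPM against 22.5 to 38.6 in WT on Con, -0.68 (adjusted p = 0.00065), and 20.1 to 25.0 against 36.1 to 43.6 on MR, -0.75 (adjusted p = 5.3e-05). The lowest WT Con value was that of the library labelled WT_CON_7607, and without it the difference on Con was -0.80 (adjusted p = 1.3e-07). Smad9, an intracellular transducer of BMP signals, rose with MR in WT (1.45, adjusted p = 0.00032), and Fst, a secreted antagonist of activins, fell (-1.74, adjusted p = 0.02) from 7.10 ± 2.85 CPM (SD, n = 5) to 2.03 ± 1.38 CPM (SD, n = 5). Neither of the BMP target genes Id1 and Smad7 was called for MR. Their values were 0.10 (adjusted p = 0.87) and 0.25 (adjusted p = 0.49) in WT and 0.63 (adjusted p = 0.14) and 0.25 (adjusted p = 0.45) in NRF2 KO. Of 8 tested genes of the inflammatory control of hepcidin, 1 rose and 1 fell with MR in WT, 1 rose with MR in NRF2 KO, 1 was higher and 1 lower in NRF2 KO on Con, and 1 was higher on MR. The cytokine Il1b fell with MR in WT (-0.91, adjusted p = 0.01) and was lower in NRF2 KO on Con (-0.80, adjusted p = 0.0499). The interleukin receptor Il6ra rose with MR, at 0.51 (adjusted p = 0.012) in WT and 0.39 (adjusted p = 0.032) in the knockouts, and was higher in NRF2 KO on Con (0.69, adjusted p = 0.0032) and on MR (0.57, adjusted p = 0.011).

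Tfrc (ENSMUSG00000022797, chr16:32608920-32632794, plus strand) encodes the receptor that takes up transferrin-bound iron, and the search found 4 matches in its 3′ UTR. It stood at 8.77, 8.44, 5.64, 8.89 and 10.9 CPM in WT Con mice and at 21.6, 19.2, 16.2, 19.9 and 13.3 CPM in WT MR mice. In NRF2 KO livers, Con mice had a lowest value of 5.20 CPM, a median of 9.08 and a highest value of 17.5, and NRF2 KO MR mice a lowest value of 9.43 CPM, a median of 11.5 and a highest value of 19.2. WT MR lay wholly above WT Con, and both NRF2 KO groups spanned most of that distance. Tfrc rose 2.11-fold with MR in WT, a log2 fold change of 1.08 ± 0.28 (SE, adjusted p = 0.014), with the value 0.45 ± 0.25 (SE, adjusted p = 0.26) in NRF2 KO and a difference between the effects of -0.62 ± 0.38 (SE, adjusted p = 0.73). Between genotypes the values were 0.20 ± 0.27 (SE, adjusted p = 0.81) on Con and -0.43 ± 0.26 (SE, adjusted p = 0.51) on MR. The rise in WT was 1.10 ± 0.31 (SE, adjusted p = 0.027) without the library labelled WT_CON_7607 and 1.15 (adjusted p = 0.051) with a clock score as covariate. The mRNAs of the receptor, of ferritin and of ferroportin thus all rose in WT liver on MR.

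Of 9 iron uptake genes tested, Tfrc and the ferrireductase Steap2 were the 2 called with MR in WT, both higher, and Steap2 also rose in NRF2 KO (0.57, adjusted p = 0.037 and 0.72, adjusted p = 0.0055). Without the library labelled WT_CON_7607 Steap2 lost its call in WT (0.56, adjusted p = 0.064). Tfr2, the hepatocyte iron sensor, was -0.03 (adjusted p = 0.86) in WT and was called lower in NRF2 KO (-0.22, adjusted p = 0.05). Trf, the plasma carrier transferrin, was -0.24 (adjusted p = 0.054) for MR in WT, and on MR it was higher in NRF2 KO than in WT liver (0.33, adjusted p = 0.024). Slc39a14, which imports iron not bound to transferrin, was higher in NRF2 KO on Con (0.38, adjusted p = 0.03). By edgeR's quasi-likelihood test 0 of the 5 genes listed for the iron regulatory proteins passed in any comparison, and 0 had an unadjusted p under 0.05. The values for MR were 0.06 (adjusted p = 0.68) for Aco1 and -0.14 (adjusted p = 0.42) for Ireb2 in WT and of 0.02 (adjusted p = 0.88) and -0.13 (adjusted p = 0.4) in NRF2 KO.

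Alas1 (ENSMUSG00000032786, chr9:106233455-106248654, minus strand), the rate-limiting enzyme of hepatic heme synthesis, stood at 69.97, 76.3, 83.4, 141 and 308 CPM in WT Con mice and at 519, 268, 258, 304 and 422 CPM in WT MR mice. The knockouts on Con had a lowest value of 119 CPM, a median of 353 and a highest value of 678, and NRF2 KO MR mice a lowest value of 234 CPM, a median of 423 and a highest value of 507. WT Con was the low group, except for mouse WT_CON_7608, which lay inside the WT MR range. With MR in WT the log2 fold change was 1.38 ± 0.46 (SE, adjusted p = 0.052) and for the knockout on Con 1.35 ± 0.45 (SE, adjusted p = 0.14), both with large errors and neither called. Without WT Con mouse WT_CON_7608 both passed, at 1.94 (adjusted p = 0.0071) and 1.90 (adjusted p = 0.027), and MR in WT also passed without each of NRF2 KO Con mice KO_CON_7617, KO_CON_7621 and KO_CON_7622, the last at 1.38 (adjusted p = 0.039). Without the library labelled WT_CON_7607 the values were 1.40 (adjusted p = 0.085) and 1.36 (adjusted p = 0.19). The other comparisons gave 0.20 (adjusted p = 0.81) for MR in NRF2 KO, 0.17 (adjusted p = 0.92) for the knockout on MR and -1.18 (adjusted p = 0.69) for the difference between the effects of MR.

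Alas1 is also known as a target of the circadian clock, and clock genes moved with the same groups. Of 18 clock genes, 8 were called with MR in WT, 2 with MR in NRF2 KO, 10 for the knockout on Con and 2 for the knockout on MR. A score over these 18 genes had medians of -0.748 in WT Con, -0.111 in WT MR, 0.31 in NRF2 KO Con and 0.544 in NRF2 KO MR mice, and all NRF2 KO Con mice (0.0558 to 0.535) were above all WT Con mice (-1.83 to -0.396). With this score as covariate Alas1 was 0.68 (adjusted p = 0.41) for MR in WT and 0.22 (adjusted p = 0.9) for the knockout on Con, and Hmox1 was -1.06 (adjusted p = 0.0058) for MR in WT. The score itself differs between the groups, so it and the group cannot be told apart. Of the regulators of Alas1 and Hmox1, the clock repressor Nr1d1 was -0.22 (adjusted p = 0.25) and the coactivator Ppargc1a -0.02 (adjusted p = 0.96) for MR in WT. The small Maf factor Mafg, a partner of NRF2 and BACH1, rose with MR in both genotypes (0.59, adjusted p = 0.00042 and 0.56, adjusted p = 0.00035). Between genotypes Mafg was not called with all 22 mice, at -0.27 (adjusted p = 0.16) on Con and -0.30 (adjusted p = 0.1) on MR. Without the library labelled WT_CON_7607 both were called, at -0.36 (adjusted p = 0.013) on Con and -0.30 (adjusted p = 0.029) on MR. The comparison on MR does not hold that library, and its log2 fold change stayed at -0.30. Maff (1.22, adjusted p = 0.00093) and the heme-sensing repressor Bach1 (0.38, adjusted p = 0.0049) rose in NRF2 KO, with Bach1 at 0.22 (adjusted p = 0.11) and Maff at 0.72 (adjusted p = 0.055) in WT. Lonp1, the mitochondrial protease that degrades ALAS1, rose with MR in WT (0.27, adjusted p = 0.005), and Foxo1 was higher in NRF2 KO on Con (0.50, adjusted p = 0.0067).

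Fech (ENSMUSG00000024588, chr18:64452914-64490251, minus strand), which inserts iron into the porphyrin ring in the last step of heme synthesis, stood at 115, 97.6, 108, 96.0 and 105 CPM in WT Con mice and at 116, 122, 121, 117 and 121 CPM in WT MR mice. NRF2 KO Con mice had a lowest value of 104 CPM, a median of 110.4 and a highest value of 123, and NRF2 KO MR mice a lowest value of 97.4 CPM, a median of 109.9 and a highest value of 119. All WT MR mice lay narrowly above all WT Con mice, and the other comparisons overlapped. The log2 fold change for MR in WT was 0.20 ± 0.070 (SE, adjusted p = 0.062), not called, and for MR in NRF2 KO -0.04 ± 0.064 (SE, adjusted p = 0.73). It passed without WT Con mouse WT_CON_7602 (0.23, adjusted p = 0.036) and was 0.17 (adjusted p = 0.13) without the library labelled WT_CON_7607. Genotypes differed by 0.10 (adjusted p = 0.53) on Con and -0.14 (adjusted p = 0.37) on MR, and the effects of MR differed by -0.24 (adjusted p = 0.54). Of the 8 heme synthesis genes edgeR's quasi-likelihood test called 0 in each comparison. DESeq2, looked up for the members only, called Alas1 (1.39, adjusted p = 0.026) and Fech (0.20, adjusted p = 0.031) for MR in WT. For that comparison DESeq2 called 2108 of 15160 genes in all. At an unadjusted p under 0.05 in edgeR's test there were 2 of the 8 for MR in WT, Alas1 and Fech. There were 0 for MR in NRF2 KO and 1 each for the knockout on Con and on MR.

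**Figure D4:**
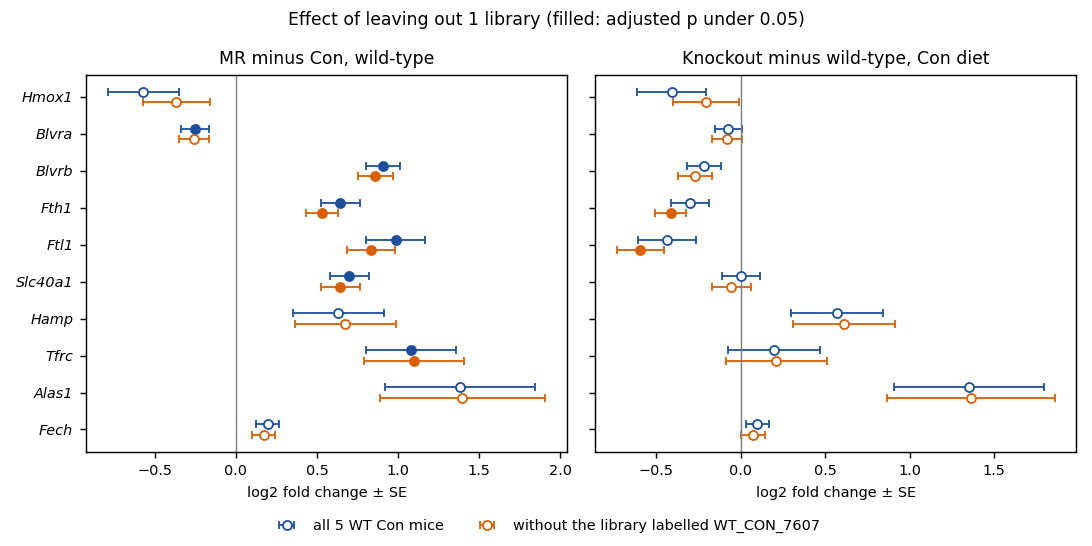
Log2 fold change with its standard error (x axis) for the 10 members (y axis) for MR in wild-type mice and for the knockout on Con, with all 5 WT Con mice (blue) and without the library labelled WT_CON_7607 (orange), where filled points have an adjusted p under 0.05. Without it Blvra lost its call in wild-type mice at -0.26, and Fth1 at -0.41 and Ftl1 at -0.59 gained one between genotypes.

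Without the library labelled WT_CON_7607 the members called numbered 5 for MR in WT (5 higher), 3 for MR in NRF2 KO (2 higher, 1 lower), 2 for the knockout on Con (both ferritin chains, lower) and 4 for the knockout on MR, with 11.1%, 13.2%, 2.34% and 2.5% of all genes called. The difference between the MR effects was then called for none of the 10 by edgeR's quasi-likelihood test, with 0.0893% of all genes called, and for Slc40a1 it was -0.60 ± 0.16 (SE, adjusted p = 0.3) and for Fth1 -0.39 ± 0.13 (SE, adjusted p = 0.48). At an unadjusted p under 0.05 both passed, as did Blvrb and Fech, and the share of all genes was not computed for that fit.

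Genes that move heme inside and out of cells also changed. Of 13 tested, 4 rose and 1 fell with MR in WT and 2 rose and 1 fell with MR in NRF2 KO, against 13.8% and 12.6% of all genes called. Between genotypes 0 were called on Con in edgeR (2 at an unadjusted p under 0.05), and 3 were lower in NRF2 KO on MR, against 2.07% and 1.93%. Slc48a1, which carries heme from lysosomes to the cytosol, rose with MR (0.78, adjusted p = 6.8e-05, in WT livers, and 0.38, adjusted p = 0.015, in knockouts) and was lower in NRF2 KO on MR (-0.69, adjusted p = 3e-04). Its values were 57.1 to 84.1 CPM in WT Con, 101 to 147 in WT MR, 49.1 to 56.7 in NRF2 KO Con and 57.0 to 78.8 in NRF2 KO MR mice. At the 3′ end Slc48a1 overlaps Hdac7 on the other strand, as Hmox2 does Cdip1 and Pcbp2 does Map3k12, while Mafg overlaps Sirt7 on the same strand. How strand was used in counting is not given in the sources used here. Slc25a39, a mitochondrial carrier, rose in WT (0.37, adjusted p = 0.0034), and the heme-binding protein Pgrmc1 was lower in NRF2 KO on MR (-0.56, adjusted p = 0.0097). Of 17 genes for mitochondrial iron and iron-sulfur clusters, 3 rose with MR in WT and 1 in NRF2 KO. Of all genes 6.91% and 6.23% were called higher. The chaperone Hspa9 rose in both (0.72, adjusted p = 4.6e-06 and 0.45, adjusted p = 0.00033), and the assembly factor Lyrm4 rose in WT (0.29, adjusted p = 0.028). The erythroid heme-synthesis gene Alas2, counted with the red blood cell markers, fell with MR in both genotypes (-0.91, adjusted p = 0.0277, in WT and -1.16, adjusted p = 0.0042, in NRF2 KO), at 868 to 2000 reads in WT Con and 120 to 796 in WT MR mice. These reads are not scaled for depth. Alas2 was the 1 gene called with MR among the 5 red blood cell markers tested, in each genotype. Their median log2 fold change with MR was -0.098 in WT and 0.158 in NRF2 KO. The summed level of these 5 markers ranged from 1297 to 3183 CPM in WT MR and from 2089 to 2584 in WT Con mice. In NRF2 KO the sums were 1537 to 3710 CPM on Con and 1080 to 3056 on MR.

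Of 45 pairs of members, compared over all 22 mice after group means were removed, none had an adjusted p under 0.05 in a permutation test of 100000 shuffles within groups, two-sided, for Pearson's r or Spearman's rho. The pair with the lowest adjusted p, Slc40a1 and Fech, had r = 0.599 (permutation p = 0.0025, adjusted p = 0.11) and rho = 0.624 (permutation p = 0.0032, adjusted p = 0.14), and r = 0.525 without the 2 mice farthest from the median of Slc40a1. Fth1 and Ftl1 had r = 0.71 (permutation p = 0.016, adjusted p = 0.16) and rho = 0.599 (permutation p = 0.01, adjusted p = 0.14), with r = 0.399 without the library labelled WT_CON_7607 and r = 0.424 without the 2 mice farthest from the median of Fth1. Ftl1 and Hamp had r = -0.606 (permutation p = 0.016, adjusted p = 0.16) and rho = -0.63 (permutation p = 0.0061, adjusted p = 0.14), with r = -0.605 without the 2 mice farthest from the median of Ftl1.

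Promoters of 7 members are in the RefSeq table (GRCm38.p6, 250 bases before to 50 after each start), while Hmox1, Slc40a1 and Fech have no entry. The core of the antioxidant response element to which NRF2 binds, TGACNNNGC, was searched on both strands and was found in 1 of the 7, Blvra, where 4071 of all 32851 promoters (12.4%) hold it. A match says that these letters are in the window, and no match says nothing of the factor.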

How the data were processed

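Total liver RNA of 24 male mice was made into 3′ libraries with a Lexogen QuantSeq kit. The authors mapped and counted the reads with the kit maker's pipeline and deposited a table of read counts per gene and mouse, together with a table of normalized values, a signal made by dividing each mouse's counts by a DESeq2 size factor. The submitters' processing notes name GRCm38 and mm10, DESeq2 1.18.1 and R 3.4.3, while the aligner and the annotation are not given in the sources used here.

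From the deposited counts, edgeR 4.0.16 in R 4.3.3 was run with TMM scaling, its own filter on low counts, robust quasi-likelihood fits over the 4 groups and Benjamini-Hochberg adjustment at 0.05. Groups came from the labels and mice are numbered as labelled. The difference between the effects of MR was tested as an interaction. Alternatives used DESeq2 1.42.0, limma 3.58.1 on log2 of the deposited normalized values plus 1, other scalings, filters and sets of mice, and a score over 18 clock genes as covariate. No interval or floor on counts was needed, since no share of counts is reported. On simulated data with 100 genes changed 2-fold among 13161, 79 were recovered for MR in WT and 84 for MR in NRF2 KO, and of 100 changed 1.5-fold 52 and 61. The fit without the library labelled WT_CON_7607 was extended to other named genes after seeing the data.

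Members, pathway lists and markers were chosen with earlier results of these data known. Beside the members, genes were named by rule: 11 genes related to them whatever their values, and for each list and comparison up to 3 called genes with the largest change and no overlap between groups at a mean of 1 CPM or more. Clock genes, NRF2 target enzymes, acute phase proteins and markers are given as counts. Alas2, outside that rule, was chosen after its values were seen, Bmp6 was not analysed here, and 1 gene that the rule names is not reported here. Annotation was GENCODE M21 on GRCm38.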

Additional observations from a re-analysis of the deposited data

Results flagged for a closer look

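For the heme exporter Abcg2 the effect of MR differed between genotypes, with a difference on the log2 scale of -0.65 (NRF2 KO minus WT, adjusted p = 0.023, edgeR's quasi-likelihood test for the interaction). The log2 fold change of Abcg2 with MR was -0.03 (adjusted p = 0.88) in WT and -0.68 (adjusted p = 7.3e-06) in NRF2 KO, and on MR the knockouts were lower, at -0.87 (adjusted p = 6.2e-07).

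The WT MR mouse WT_MR_7612, which the comparisons left out, lay above every kept WT Con mouse for 9 of the 10 members, on CPM scaled over all 24 mice. Hmox1 stood at 26.2 CPM there against a highest WT Con value of 22.9, Blvrb at 195 against 144, and Fth1 at 2570.2 against 1925. Ftl1 stood at 1808 against 903, Slc40a1 at 199 against 137, and Hamp at 1902 against 1568. Tfrc stood at 13.6 against 10.98, Fech at 117 against 115, and Alas1 at 312 against 311. The margins for Fech and Alas1 were small. For Hmox1 the kept WT MR mice lay lower, at 6.75 to 13.5 CPM on that scale. These are values of 1 mouse and were not tested. The share of all genes for which that mouse lay above every kept WT Con mouse was not computed, so the count of members has no background.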

How the results depend on the processing

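Of the 490 values under the 10 other settings 442 kept their direction and their side of the threshold, 14 lost and 17 gained a call, and 17 took the other sign, and of the 1100 without 1 mouse the numbers were 1040, 23, 14 and 23. Members called for MR in NRF2 KO, 2 in the comparison as reported, were 1 with all 24 mice, 4 with all 24 mice and quality weights and 1 to 3 without 1 mouse. For the knockout on Con they were 0 to 2 without 1 mouse, 2 without WT Con mouse WT_CON_7607 (Fth1 and Ftl1) and 1 without WT Con mouse WT_CON_7608 (Alas1), and for the difference between the MR effects 1 with DESeq2 and 0 to 1 without 1 mouse. The rises of Blvrb, Fth1, Ftl1 and Slc40a1 with MR in WT were called under all 10 settings and without any 1 mouse. The causes were not tested.

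With all 22 mice each gene below was uncalled, and its log2 fold change took the other sign as follows. With library sizes only it was 0.15 for Hmox1 (MR in NRF2 KO), 0.11 for Fech (MR in NRF2 KO) and -0.014 for Slc40a1 (the knockout on Con). With limma on the deposited normalized values it was 0.0076 for Hmox1 (MR in NRF2 KO). With the clock score as covariate it was -0.012 for Alas1 (MR in NRF2 KO), -0.098 for Slc40a1 (the knockout on Con), -0.24 for Hamp (the knockout on Con), -0.23 for Hmox1 (the knockout on MR), -0.33 for Hamp (the knockout on MR) and -0.47 for Alas1 (the knockout on MR). With all 24 mice it was -0.041 for Slc40a1 (the knockout on Con), -0.23 for Hmox1 (the knockout on MR), -0.021 for Hamp (the knockout on MR) and -0.062 for Blvra (the difference between the MR effects). With all 24 mice and quality weights it was -0.11 for Tfrc (the knockout on Con) and -0.080 for Blvra (the difference between the MR effects). With DESeq2 it was -0.0033 for Blvra (the difference between the MR effects). Without 1 mouse at a time the values ran from -0.084 to 0.072 for Hmox1 (MR in NRF2 KO), -0.012 to 0.12 for Slc40a1 (MR in NRF2 KO), -0.020 to 0.31 for Hamp (MR in NRF2 KO), -0.068 to 0.10 for Slc40a1 (the knockout on Con), -0.029 to 0.34 for Tfrc (the knockout on Con), -0.076 to 0.19 for Hamp (the knockout on MR) and -0.040 to 0.050 for Blvra (the difference between the MR effects). No paired analysis was possible because the groups share no mouse numbers. Groups of 5 and 6 mice, and 65 to 436 reads of Hmox1 per mouse, limit what small differences can show.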

Other observations

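The left-out WT Con mouse WT_CON_7604 had 7 of the 10 members inside the range of the kept WT Con mice. Outside it were Hmox1 at 37.0 CPM, above the highest kept mouse at 22.9, Hamp at 2501 CPM, above 1568, and Blvra at 15.6 CPM, below the lowest kept mouse at 18.4. The left-out WT MR mouse WT_MR_7612 likewise had 7 members inside its group's range, with Hmox1 and Blvra above it and Blvrb below it.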
